A study of Mus musculus with 8 samples.

Results

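The genes described here mark the cells that line blood and lymph vessels in bulk RNA of KPC tumours grown under the skin of mice. KPC is a genetic mouse model of pancreatic cancer. Rows of the deposited gene table were taken when their symbol was one of 34 fixed endothelial names, and all 34 were found, each on 1 row, among 57132 rows. Of the 34, 33 passed the filter on low counts and were among the 16588 genes tested, and Sele did not pass. There were 4 samples from mice given PBS, a buffered saline, and 4 from mice given Ce6@D4-EV and then light. The treatment is a photodynamic therapy and the group is written PDT. Ce6 stands for chlorin e6, which forms reactive oxygen species under light, and D4-EV is the carrier as the submitters name it. Mouse strain, age and sex, dose and time of harvest were not given in the sources used here. Groups with only light or only the carrier were not analysed here. The labels call the tissue sorted but name no gate, and leave unsaid whether each sample is from its own animal, so the p-values cover the spread among these libraries, which may be technical.

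Endothelial cells are held together by adhesion molecules such as VE-cadherin and claudin-5, and their identity is kept by ETS-family factors such as ERG and by SOX factors of the F group. At the front of a growing vessel, tip cells guided by VEGF and restrained by Notch express Dll4, Esm1 and apelin. Inflamed endothelium, above all in small veins, displays selectins and the immunoglobulin-like molecules ICAM-1 and VCAM-1, to which leukocytes attach. Lymphatic endothelium depends on PROX1 and carries the hyaluronan receptor LYVE-1. Photodynamic therapy of tumours is known for damaging vessels.

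The promoters of 5 genes are shown as examples. They are Erg, whose difference had the smallest p of all members, and Tie1 and Robo4 of the pan-endothelial set. The others are Sele and Icam1, an almost silent and a well-expressed adhesion molecule of inflamed vessels. Each runs from 250 bases before to 50 bases after the start of the gene, from RefSeq on build GRCm38.p6, in which 18 of the 34 members were matched. Capitals mark matches to CNGGAAG on either strand, a form of the site bound by ETS factors, and the one Erg promoter with a match is printed of the 3 listed for it. The promoters printed for Erg, Tie1 and Robo4 all hold a match, whereas those of Cldn5, Eng and Tek, not printed, hold none.
Erg (chr16:95459299-95459598, - strand): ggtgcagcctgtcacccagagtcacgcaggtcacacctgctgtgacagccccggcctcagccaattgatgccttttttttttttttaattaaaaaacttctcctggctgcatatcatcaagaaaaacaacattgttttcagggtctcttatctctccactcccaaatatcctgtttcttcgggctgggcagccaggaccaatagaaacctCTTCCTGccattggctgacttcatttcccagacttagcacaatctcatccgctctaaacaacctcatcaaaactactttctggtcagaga
Tie1 (chr4:118489800-118490099, - strand): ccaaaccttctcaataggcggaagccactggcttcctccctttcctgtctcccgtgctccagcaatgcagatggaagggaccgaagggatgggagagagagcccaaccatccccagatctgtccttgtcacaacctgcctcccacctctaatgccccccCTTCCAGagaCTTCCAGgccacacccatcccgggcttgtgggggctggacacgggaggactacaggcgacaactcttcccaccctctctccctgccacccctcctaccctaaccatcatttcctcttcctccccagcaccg
Robo4 (chr9:37401722-37402021, + strand): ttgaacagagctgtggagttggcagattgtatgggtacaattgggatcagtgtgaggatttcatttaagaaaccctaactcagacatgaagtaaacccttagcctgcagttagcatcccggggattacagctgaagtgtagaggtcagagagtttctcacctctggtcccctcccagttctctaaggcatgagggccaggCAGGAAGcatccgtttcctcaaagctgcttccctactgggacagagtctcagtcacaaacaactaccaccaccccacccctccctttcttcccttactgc
Sele (chr1:164047984-164048283, + strand): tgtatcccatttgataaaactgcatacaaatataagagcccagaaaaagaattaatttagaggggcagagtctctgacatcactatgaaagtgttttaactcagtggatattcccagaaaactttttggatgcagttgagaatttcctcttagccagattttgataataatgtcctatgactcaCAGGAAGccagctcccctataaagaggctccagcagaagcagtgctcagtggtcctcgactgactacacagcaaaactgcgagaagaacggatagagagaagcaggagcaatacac
Icam1 (chr9:21015690-21015989, + strand): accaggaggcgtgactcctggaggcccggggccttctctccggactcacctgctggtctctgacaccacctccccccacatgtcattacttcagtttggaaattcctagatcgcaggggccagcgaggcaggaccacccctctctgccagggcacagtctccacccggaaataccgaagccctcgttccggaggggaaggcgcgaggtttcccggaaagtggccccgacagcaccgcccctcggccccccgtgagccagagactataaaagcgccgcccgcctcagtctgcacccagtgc
The Erg match begins at −40 relative to the start site, the Tie1 matches at −91 and −81, that of Robo4 at −50 and that of Sele at −66. At least 1 match was found in 12 of the 18 matched genes, and in 14 of their 23 promoters, against 31.9% of all 32851 promoters of this length. The NF-kappaB consensus, searched on both strands, had 0 matches in the 23 promoters, against 4.51% of all promoters, so no ETS match overlaps one. Only exact matches to GGGRNWYYCC were counted (R is A or G, W is A or T, Y is C or T, N is any base). The stretch tggaaattcc in the Icam1 promoter, which departs from it in the first letter only, was thus not counted. The Sele promoter holds such stretches as well, tggatattcc and gagaatttcc, each departing in a single letter, and they were not counted either. The lack of matches therefore does not show that sites for NF-kappaB are absent. These are descriptions of letters in a 300-base window.

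Between PDT and PBS tumours, 0 of the 33 tested endothelial genes had an adjusted p under 0.05 by edgeR. Over all genes tested, 0.235% did so, 0.163% higher and 0.0723% lower in PDT (27 and 12 genes). In bulk tissue, fewer cells of a type and less RNA per cell cannot be told apart. At an unadjusted p under 0.05, 5 members were higher in PDT, namely Erg, Sox18, Eng, Tie1 and Plvap, and 1 was lower, Vcam1. Over all tested genes these shares were 8.63% higher and 7.87% lower, 16.5% in all. In 0 of the 33 did all 4 values of one group lie above all 4 of the other, as they did in 10.1% of tested genes (lower in 5.12%). DESeq2 also called 0 members, where it called 3.79% of all genes higher and 2.57% lower. At an unadjusted p under 0.05 it had 5 members higher and 1 lower, against 9.18% and 8.10% of all genes. Limma-voom with sample weights called 0 members, against 0.603% of all genes higher and 0.404% lower. At an unadjusted p under 0.05 it had 6 members higher and 2 lower, against 9.72% and 8.99%.

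Directions were uneven by role. Log2 fold changes were above 0 for 21 of the 33 tested members, with a median of 0.27, where 49.8% of all tested genes were above 0 and their median was −0.0022. Of the 23 pan-endothelial genes 17 were above 0, with a median of 0.398, against 2 of 4 tip genes, with a median of −0.082. Among the 4 tested genes of activated and venular endothelium 1 was above 0, with a median of −0.51 that became −0.020 under a filter of 1 CPM in 4 samples, which Selp and Ackr1 did not pass, and the lymphatic pair, Lyve1 and Prox1, had a median of −0.42. The 95% interval of the fold change lay within 2-fold in either direction for 15 of the 33 members, so for the others a difference of that size was not excluded by these data. For 22 of the 23 pan-endothelial genes the interval excluded a 2-fold fall, the exception being Sox7.

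**Figure D1:**
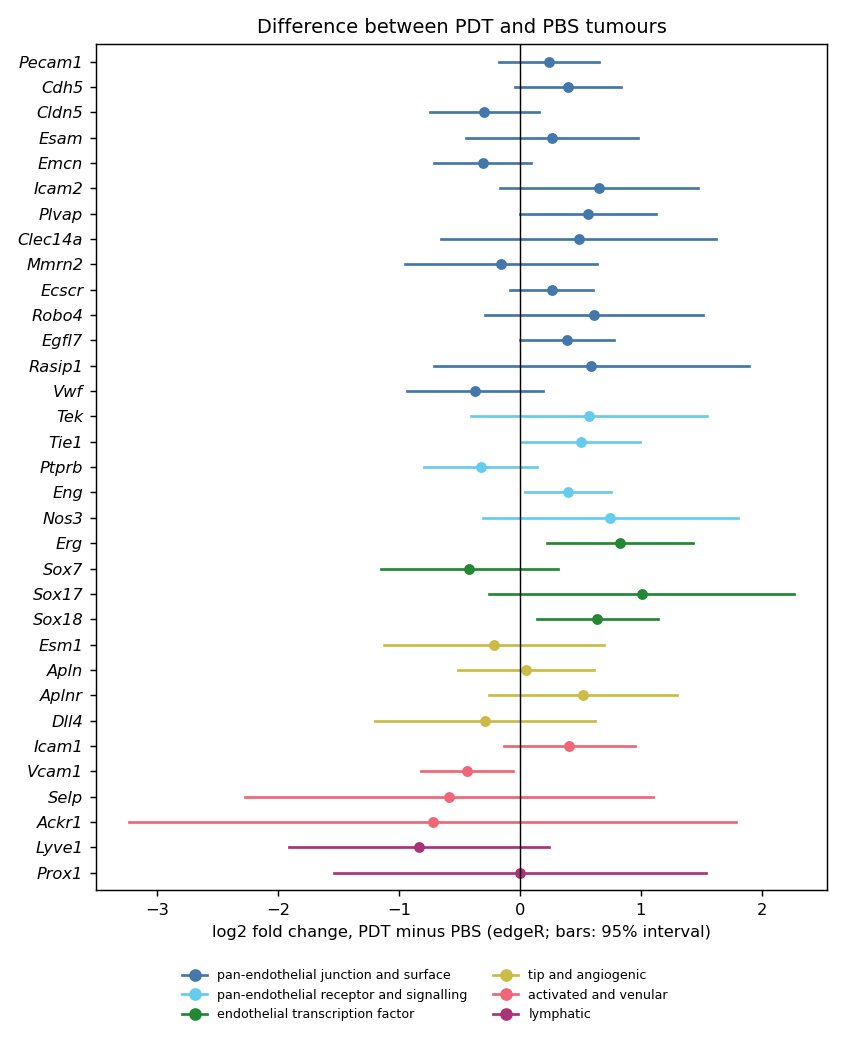
Log2 fold change of each tested endothelial gene, PDT minus PBS, from edgeR, with bars for the 95% interval and colours for the role of the gene. Most pan-endothelial genes lie to the right of 0, while Vcam1, Selp, Ackr1 and Lyve1 lie to the left, and 0 of the 33 passed an adjusted p of 0.05.

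Summed gene counts ran from 35742024 to 40337306 in PBS and from 39026840 to 48804713 in PDT, so 0 reads allow up to 3 by chance. In counts-per-million (CPM) after TMM scaling of the libraries, that is at most 0.0872 CPM, which covers counting error only. Most counts from 1 to 20 were even, so the mates of a read pair may have been counted separately. In that case the read counts given here are about 2 times the number of fragments and such floors are too low. PBS 1 stood apart from the other libraries on the first principal component over all genes. Tumour epithelium was present in every library, with Krt8 at 1400.0 to 3091 CPM in PBS and 1229.8 to 2402 CPM in PDT, Krt19 at 459.5 to 948 CPM in PBS and 470.3 to 1163 CPM in PDT and Epcam at 71.3 to 409 CPM in PBS and 126 to 290.5 CPM in PDT. Mitochondrial genes took 2.62 ± 0.383% of reads in PBS and 1.91 ± 0.344% in PDT (SD, n = 4). The two-sided exact permutation p was 0.0571 and 0.0857 once adjusted for 3 measures of the libraries, and no p below 0.0286 can be had from 70 assignments.

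Of the 14 junction and surface genes common to all vessels, 10 had estimates above 0, with a median of 0.33 on the log2 scale, and 0 were called by edgeR. At an unadjusted p under 0.05, 1 was higher and 0 were lower in PDT, against 8.63% and 7.87% of all tested genes. Pecam1, which encodes the platelet and endothelial adhesion molecule CD31, was at 22.0, 27.4, 14.6 and 23.6 CPM in PBS 1 to PBS 4 and 25.3, 22.8, 26.3 and 28.9 CPM in PDT 1 to PDT 4. PBS 3 was the lowest library and the other 7 overlapped. The estimate for Pecam1 was 0.24 ± 0.19 (SE, 95% interval −0.18 to 0.65, adjusted p = 0.590 by edgeR) on the log2 scale. Cdh5, the VE-cadherin of adherens junctions, was at 11.9, 15.2, 16.4 and 16.2 CPM in PBS 1 to PBS 4 and 13.2, 22.7, 22.4 and 20.4 CPM in PDT 1 to PDT 4. PDT 2, PDT 3 and PDT 4 lay above all PBS libraries and PDT 1 lay among them. The estimate for Cdh5 was 0.40 ± 0.20 (SE, 95% interval −0.042 to 0.84, adjusted p = 0.355 by edgeR) on the log2 scale. Without PDT 1 the groups of Cdh5 did not overlap, which then held for 6.45% of all genes tested in that direction, and its log2 difference was 0.56.

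Plvap encodes the protein of the diaphragms that span endothelial fenestrae and caveolae. It was at 14.3, 10.7, 14.0 and 17.9 CPM in PBS 1 to PBS 4 and 13.2, 16.3, 26.4 and 28.2 CPM in PDT 1 to PDT 4. PDT 3 and PDT 4 were the highest, while PDT 1 and PDT 2 lay within the PBS range. The estimate for Plvap was 0.57 ± 0.26 (SE, 95% interval 0.0041 to 1.13, adjusted p = 0.298 by edgeR) on the log2 scale. Egfl7, a secreted factor of vessel formation whose gene also holds Mir126a, was at 13.0, 13.9, 10.4 and 12.0 CPM in PBS 1 to PBS 4 and 17.2, 12.7, 16.3 and 18.3 CPM in PDT 1 to PDT 4, with PDT 2 inside the PBS range. The estimate for Egfl7 was 0.39 ± 0.18 (SE, 95% interval −0.0027 to 0.78, adjusted p = 0.307 by edgeR) on the log2 scale. Icam2, a resting adhesion ligand for leukocyte integrins, was at 1.998 to 3.31 CPM in PBS and 2.33 to 5.69 CPM in PDT, and again PDT 3 and PDT 4 were the highest libraries. The estimate for Icam2 was 0.65 ± 0.37 (SE, adjusted p = 0.426 by edgeR) on the log2 scale.

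Cldn5, the claudin of endothelial tight junctions, went the other way. It was at 13.4, 14.0, 9.83 and 11.9 CPM in PBS 1 to PBS 4 and 9.44, 7.64, 10.9 and 12.0 CPM in PDT 1 to PDT 4. The lowest values were those of PDT 2 and PDT 1, with PDT 3 and PDT 4 inside the PBS range. The estimate for Cldn5 was −0.29 ± 0.21 (SE, 95% interval −0.75 to 0.16, adjusted p = 0.533 by edgeR) on the log2 scale. Set against the sum of Pecam1 and Cdh5 in the same library, Cldn5 was at a ratio of 0.298 to 0.396 in PBS and 0.168 to 0.246 in PDT, without overlap. It was the only member of which this held, but by the same ratio 13.9% of all tested genes were lower in PDT without overlap and 0.928% higher, so it is not particular to Cldn5. That ratio was looked at after the values were seen.

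Emcn, the sialomucin endomucin of capillaries and veins, was at 14.2 to 17.4 CPM in PBS and 9.97 to 16.3 CPM in PDT, with PDT 4 the lowest library, and Vwf, the clotting glycoprotein stored in endothelial granules, at 7.88 to 13.6 CPM in PBS and 5.94 to 11.3 CPM in PDT, with PDT 1 the lowest. Their log2 differences were −0.31 ± 0.18 (SE, adjusted p = 0.452 by edgeR) and −0.37 ± 0.26 (adjusted p = 0.525). Ecscr, a regulator of endothelial migration, had the highest level per length of all members and was at 35.4 to 44.9 CPM in PBS and 40.7 to 63.8 CPM in PDT, with PDT 3 highest. The estimate for Ecscr was 0.26 ± 0.16 (SE, adjusted p = 0.444 by edgeR) on the log2 scale.

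The remaining 5 junction and surface genes varied widely within groups. Esam, an adhesion molecule of tight junctions, was at 5.87 to 13.5 CPM in PBS and 5.63 to 13.2 CPM in PDT, and its PBS maximum was PBS 1, which lay above the other PBS libraries by more than their own spread. Robo4, a guidance receptor that stabilises vessels, was at 1.34 to 3.81 CPM in PBS and 3.15 to 4.59 CPM in PDT. Clec14a, an endothelial C-type lectin, was at 0.872 to 3.39 CPM in PBS and 1.78 to 3.72 CPM in PDT, and its binding partner Mmrn2, an extracellular glycoprotein, at 2.15 to 6.42 CPM in PBS and 3.26 to 4.46 CPM in PDT. In Rasip1, an effector of Ras-like GTPases needed for vessel lumens, the PBS libraries alone ran from 0.421 CPM in PBS 3 to 3.13 CPM in PBS 1, which covered nearly all of the PDT range of 1.47 to 3.17 CPM. The log2 differences of these 5 genes were 0.27 ± 0.33, 0.61 ± 0.41, 0.49 ± 0.52, −0.15 ± 0.36 and 0.59 ± 0.60 in that order (SE, adjusted p = 0.514 to 0.889 by edgeR).

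Receptors and signalling proteins showed the same unevenness among treated samples. Eng, the endoglin co-receptor for TGF-beta family ligands, was at 25.0, 26.5, 19.3 and 26.8 CPM in PBS 1 to PBS 4 and 25.9, 30.6, 38.1 and 33.99 CPM in PDT 1 to PDT 4. PDT 2, PDT 3 and PDT 4 lay above all PBS libraries and PDT 1 within them. The estimate for Eng was 0.40 ± 0.16 (SE, 95% interval 0.040 to 0.76, adjusted p = 0.252 by edgeR) on the log2 scale. Tie1, an orphan partner of the angiopoietin receptor, was at 7.13, 8.30, 9.57 and 6.28 CPM in PBS 1 to PBS 4 and 9.62, 9.12, 14.0 and 11.5 CPM in PDT 1 to PDT 4, and PDT 2 was lower than PBS 3. The estimate for Tie1 was 0.50 ± 0.22 (SE, 95% interval 0.015 to 0.99, adjusted p = 0.287 by edgeR) on the log2 scale. Tek encodes TIE2, the angiopoietin receptor itself, and was at 2.56, 1.95, 1.68 and 5.87 CPM in PBS 1 to PBS 4 and 3.86, 2.80, 5.71 and 5.57 CPM in PDT 1 to PDT 4. PBS 4 was the highest library of all 8, so its estimate of 0.57 ± 0.45 (SE, adjusted p = 0.584 by edgeR) became 1.13 without PBS 4.

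Ptprb, the phosphatase VE-PTP that dampens TIE2 and VE-cadherin signalling, was at 18.4, 12.2, 19.8 and 17.6 CPM in PBS 1 to PBS 4 and 9.71, 16.9, 13.9 and 13.9 CPM in PDT 1 to PDT 4. PDT 1 was the lowest library and the other 7 overlapped. The estimate for Ptprb was −0.32 ± 0.21 (SE, 95% interval −0.79 to 0.14, adjusted p = 0.503 by edgeR) on the log2 scale. Nos3, the endothelial nitric oxide synthase, was at 0.816 to 2.05 CPM in PBS and 1.40 to 3.55 CPM in PDT, with PDT 3 the highest. The estimate for Nos3 was 0.75 ± 0.48 (SE, adjusted p = 0.490 by edgeR) on the log2 scale. Within the receptor group, Tie1 and Tek therefore had positive and Ptprb negative estimates, and 0 of the 3 passed the adjusted threshold.

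The 4 transcription factors had the highest median of the classes, 0.73 on the log2 scale. Erg, the ETS factor whose promoter is printed above, was at 4.30, 5.197, 3.89 and 7.68 CPM in PBS 1 to PBS 4 and 7.32, 8.26, 10.7 and 11.05 CPM in PDT 1 to PDT 4. PDT 2, PDT 3 and PDT 4 lay above all PBS libraries, and PDT 1, at 7.32 CPM, lay just under PBS 4, at 7.68 CPM. The log2 difference of 0.83 ± 0.28 (SE, 95% interval 0.22 to 1.43, adjusted p = 0.167 by edgeR) had an unadjusted p of 0.0115, the smallest among the members. It ran from 0.71 to 1.08 when single libraries were left out, and without PBS 4 the Erg groups did not overlap, as then held for 9.60% of genes in that direction.

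Sox18, one of the SOX factors of early vessels, was at 11.8, 7.10, 6.78 and 6.86 CPM in PBS 1 to PBS 4 and 13.3, 11.7, 14.6 and 11.1 CPM in PDT 1 to PDT 4. The PBS libraries other than PBS 1 lay together, and PBS 1 lay inside the PDT range, so that the log2 difference of 0.64 ± 0.23 (SE, 95% interval 0.14 to 1.14, adjusted p = 0.191 by edgeR) became 0.88 without PBS 1. Sox17, an arterial SOX factor, was at 0.640 to 0.980 CPM in PBS and 0.714 to 3.01 CPM in PDT, with PDT 1 the highest and PDT 2 inside the PBS range. The estimate for Sox17 was 1.01 ± 0.58 (SE, adjusted p = 0.426 by edgeR) on the log2 scale, and 0.60 without PDT 1. Sox7, the remaining member of this SOX group, was at 8.54, 7.53, 10.2 and 6.51 CPM in PBS 1 to PBS 4 and 2.705, 5.76, 7.40 and 8.65 CPM in PDT 1 to PDT 4, with PDT 1 far under the rest. The estimate for Sox7 was −0.42 ± 0.33 (SE, 95% interval −1.15 to 0.31, adjusted p = 0.592 by edgeR) on the log2 scale. The 3 related factors therefore did not share a direction, and none passed the adjusted threshold in edgeR.

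Added up, the 23 pan-endothelial genes came to 253, 241, 228 and 247 CPM in PBS 1 to PBS 4 and 241, 262, 332 and 305 CPM in PDT 1 to PDT 4. PDT 3 and PDT 4 held the highest sums and PDT 1 equalled PBS 2 within their rounding. As a mean log2 CPM over the 23 genes, the level averaged 2.73 ± 0.16 in PBS and 3.06 ± 0.22 in PDT (SD, n = 4), and PDT 1 and PDT 2 lay under PBS 1. PDT 3 was the highest of the 8 libraries for 6 of the 23 genes and the lowest for 0, whereas PBS 3 was the lowest for 8.

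**Figure D2:**
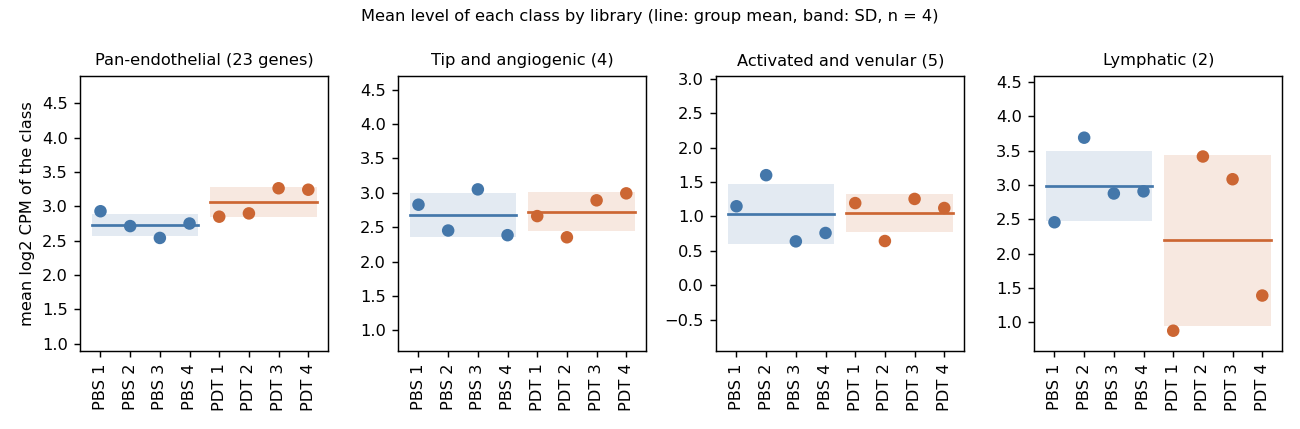
Mean log2 CPM of each class of endothelial genes in each library (y axis, each panel spanning 4 log2 units), with the group mean as a line and the SD over 4 libraries as a band. Pan-endothelial means run from 2.54 in PBS 3 to 3.26 in PDT 3, and the lymphatic pair varies most, from 0.88 in PDT 1 to 3.69 in PBS 2.

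Tip and angiogenic genes had no common direction. Esm1, the proteoglycan endocan secreted by tip cells, was at 4.46, 7.15, 10.8 and 2.62 CPM in PBS 1 to PBS 4 and 8.16, 3.77, 4.91 and 4.72 CPM in PDT 1 to PDT 4. PBS 3 was the highest and PBS 4 the lowest of all 8 libraries, so the PDT values lay inside the PBS range, and the log2 difference of −0.21 ± 0.42 (SE, 95% interval −1.13 to 0.70, adjusted p = 0.859 by edgeR) turned to 0.18 without PBS 3. Apln, the peptide ligand apelin, was at 10.4, 10.8, 20.1 and 10.5 CPM in PBS 1 to PBS 4 and 18.1, 11.1, 11.3 and 13.1 CPM in PDT 1 to PDT 4. In each group a single library, PBS 3 or PDT 1, stood above the other 6, which lay between 10.4 and 13.1 CPM. The estimate for Apln was 0.050 ± 0.26 (SE, 95% interval −0.52 to 0.62, adjusted p = 0.952 by edgeR) on the log2 scale.

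Aplnr, the receptor of apelin, was at 7.29, 3.48, 7.57 and 5.70 CPM in PBS 1 to PBS 4 and 4.79, 6.12, 11.9 and 11.8 CPM in PDT 1 to PDT 4. PDT 3 and PDT 4 were high and PDT 1 and PDT 2 lay within the PBS range, the same pair of high libraries as for Plvap and Icam2. The estimate for Aplnr was 0.52 ± 0.36 (SE, 95% interval −0.25 to 1.30, adjusted p = 0.517 by edgeR) on the log2 scale. Dll4, the Notch ligand of tip cells, was at 7.29, 3.19, 2.79 and 4.54 CPM in PBS 1 to PBS 4 and 2.17, 2.55, 4.46 and 5.38 CPM in PDT 1 to PDT 4, with its highest value in PBS 1. The estimate for Dll4 was −0.29 ± 0.42 (SE, 95% interval −1.20 to 0.62, adjusted p = 0.797 by edgeR) on the log2 scale. That estimate turned to 0.058 without PBS 1. Relative to the pan-endothelial mean of the same library, the mean of the 4 tip genes differed by −0.101, −0.26 and −0.37 log2 units in PBS 1, PBS 2 and PBS 4 and by 0.51 in PBS 3, and by −0.54 to −0.19 in the PDT libraries, inside the PBS range but for PDT 2 and PDT 3.

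Of the adhesion molecules of inflamed vessels, Vcam1 took the most reads. It was at 135, 162, 129 and 91.9 CPM in PBS 1 to PBS 4 and 78.1, 110.4, 98.5 and 94.6 CPM in PDT 1 to PDT 4. PBS 1, PBS 2 and PBS 3 lay above all PDT libraries, and PBS 4, at 91.9 CPM, lay among them. The log2 difference was −0.44 ± 0.17 (SE, 95% interval −0.82 to −0.061, adjusted p = 0.230 by edgeR), with an unadjusted p of 0.0267, and it ran from −0.56 to −0.31 when single libraries were left out. VCAM-1 is also made by fibroblasts and macrophages, whose markers summed to 7119 to 14742 CPM in PBS and 11656 to 13341 CPM in PDT (10 fibroblast genes) and 2035 to 4140.2 CPM in PBS and 4986 to 6742 CPM in PDT (12 macrophage genes), and their part in the Vcam1 level was not tested.

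Icam1, the ligand of beta-2 integrins, was at 11.2, 14.6, 12.8 and 11.3 CPM in PBS 1 to PBS 4 and 16.8, 8.89, 20.1 and 20.7 CPM in PDT 1 to PDT 4. PDT 1, PDT 3 and PDT 4 lay above all PBS libraries and PDT 2 below all of them, with a log2 difference of 0.41 ± 0.25 (SE, 95% interval −0.13 to 0.95, adjusted p = 0.457 by edgeR), which was 0.63 without PDT 2. ICAM-1 is made by leukocytes and epithelium as well. Vcam1 and Icam1, both inducible by cytokines, therefore had estimates of opposite sign.

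E-selectin, which captures leukocytes on cytokine-activated endothelium, was almost absent. Sele had 0, 0, 4 and 0 reads in PBS 1 to PBS 4 and 0, 2, 6 and 6 reads in PDT 1 to PDT 4, too few to test, and 0 reads allow up to 3 in a library. Selp, the P-selectin of endothelial granules and platelets, had 6 to 47 reads per library and was at 0.174 to 1.12 CPM in PBS and 0.312 to 0.621 CPM in PDT. The estimate for Selp was −0.59 ± 0.77 (SE, adjusted p = 0.776 by edgeR) on the log2 scale. Ackr1, the chemokine-binding receptor of venules, had 0 reads in PBS 3 and 75 in PBS 2, and its log2 difference was −0.72 ± 1.15 (SE, adjusted p = 0.823 by edgeR). These values limit what can be said of venules, since 3 of the 5 genes of this class were at or under 1.79 CPM in every library. Without Vcam1, the class summed to 12.6 to 17.5 CPM in PBS and 9.51 to 21.6 CPM in PDT.

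**Figure D3:**
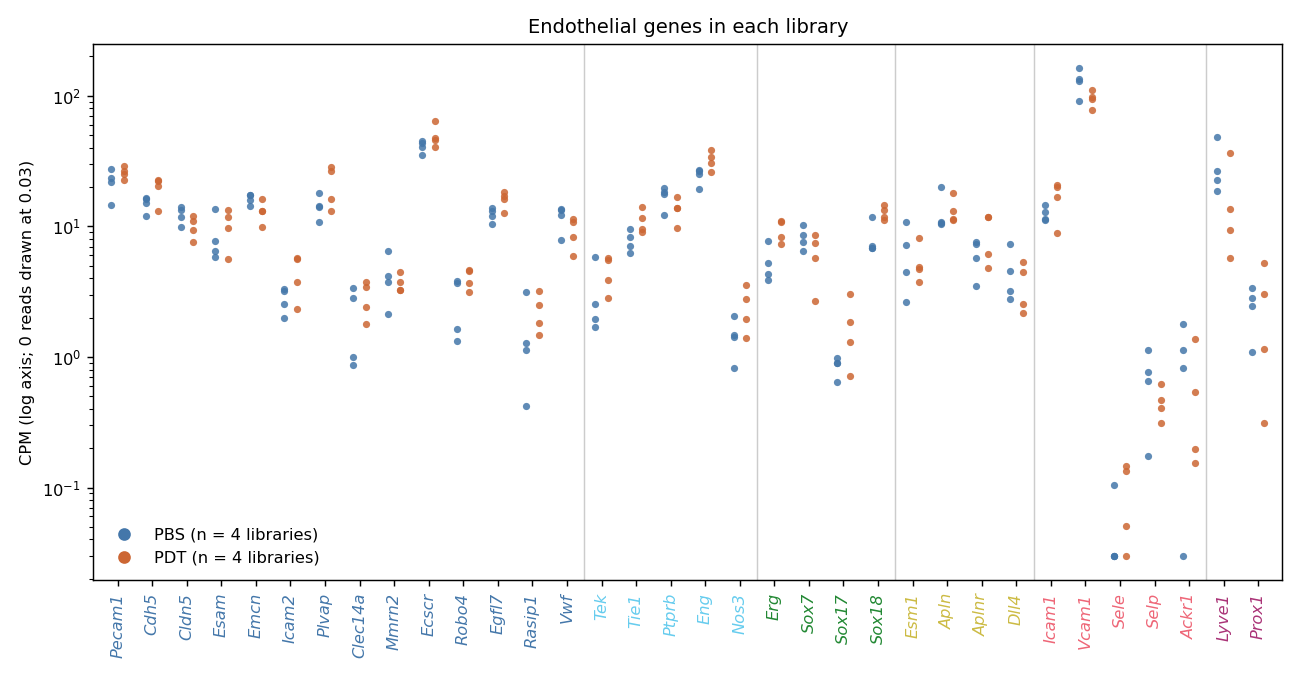
CPM of the 34 endothelial genes in each of the 4 PBS and 4 PDT libraries, on a log axis, with gene names coloured by role as in the plot of fold changes and 0 reads drawn at 0.03. Points of the groups overlap for every tested gene, and the range runs from Sele, at 0 to 0.147 CPM, to Vcam1, at 78.1 to 162 CPM.

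As class means of log2 CPM, the lymphatic pair varied more between libraries than any other class of members, though single genes such as Ackr1 had a larger coefficient of variation. Lyve1 was at 26.4, 48.3, 18.6 and 22.5 CPM in PBS 1 to PBS 4 and 9.36, 36.5, 13.5 and 5.69 CPM in PDT 1 to PDT 4. PBS 2 and PDT 2 were the 2 highest libraries, and the other 3 PDT libraries lay below all PBS libraries. The estimate for Lyve1 was −0.83 ± 0.49 (SE, 95% interval −1.91 to 0.24, adjusted p = 0.441 by edgeR) on the log2 scale. Without PDT 2 it was −1.59, and the Lyve1 groups then did not overlap, like 7.96% of genes in that direction (adjusted p = 0.0784 by edgeR, where the alternatives ran from 0.0784 to 0.739). Skeletal muscle genes were highest in these same libraries, summing to 1451 CPM in PBS 2 and 3455 CPM in PDT 2, while the other 6 held 54.0 to 774 CPM. Some macrophages carry LYVE-1 too. Cd163, a marker of such resident cells, was highest in PDT 2, at 48.5 CPM, and lowest in PBS 3, at 7.15 CPM. In PDT 1 it was at 30.9 CPM, above all PBS libraries, whereas Lyve1, at 9.36 CPM there, lay below all of them. Among the PDT libraries both genes were lowest in PDT 4, Cd163 at 9.65 CPM and Lyve1 at 5.69 CPM, and both were highest in PDT 2. The part of muscle tissue or of macrophages in the Lyve1 values was not tested.

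Prox1, the master regulator of lymphatic identity, was at 1.09, 3.39, 2.84 and 2.44 CPM in PBS 1 to PBS 4 and 0.310, 3.06, 5.26 and 1.15 CPM in PDT 1 to PDT 4. PDT 3 was the highest and PDT 1 the lowest of all 8, so both extremes were treated samples. The estimate for Prox1 was 0.0030 ± 0.70 (SE, 95% interval −1.54 to 1.54, adjusted p = 0.999 by edgeR) on the log2 scale. PDT 1 and PDT 4 were the lowest PDT libraries for both Lyve1 and Prox1. Among 11 tested genes of a further lymphatic list, these 2 were the lowest PDT libraries for 6, and the lowest of all 8 libraries for 3 (Ccl21a, Mmrn1 and Reln). The share of all tested genes with this order was not counted. It is not particular to lymphatic genes. The summed red blood cell genes were also lowest in PDT 4 and PDT 1, at 591 and 721 CPM against 808 to 4437 CPM in the other libraries. Pdpn and Stab2 had their highest values in PDT 1. In Ccl21a, the lymphatic chemokine that guides dendritic cells, PDT 1 and PDT 4 were at 13.4 and 11.7 CPM against 17.6 to 39.2 CPM in the other 6. In Mmrn1, a matrix glycoprotein of lymphatic endothelium and platelets, they were at 2.93 and 3.08 CPM against 3.97 to 10.8 CPM. Cd163, Ccl21a, Mmrn1, Reln, the red blood cell sum and the contrast with Stab2 were chosen here after their values were seen.

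Of 12 further lymphatic genes, 11 were tested, 1 fell and 0 rose past the adjusted threshold. The fall was that of Clca3a1, a surface protein of lymphatic endothelium related to chloride channel regulators, which was at 11.6, 17.7, 17.3 and 25.9 CPM in PBS 1 to PBS 4 and 4.81, 4.74, 5.60 and 3.98 CPM in PDT 1 to PDT 4, without overlap. The estimate for Clca3a1 was −1.92 ± 0.25 (SE, adjusted p = 0.03002 by edgeR) on the log2 scale, and its call was kept in 3 of the 8 fits with 1 library left out, where the log2 difference ran from −2.08 to −1.68. The fall of Clca3a1 was known when the list was written, so it does not bear on the list. Pdpn, a mucin-like protein of lymphatic endothelium that fibroblasts, macrophages and epithelium make as well, was at 40.9 to 66.5 CPM in PBS and 74.2 to 110.0 CPM in PDT, without overlap. The estimate for Pdpn was 0.70 ± 0.18 (SE, adjusted p = 0.0978 by edgeR) on the log2 scale. The median over the 11 was −0.16.

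**Figure D4:**
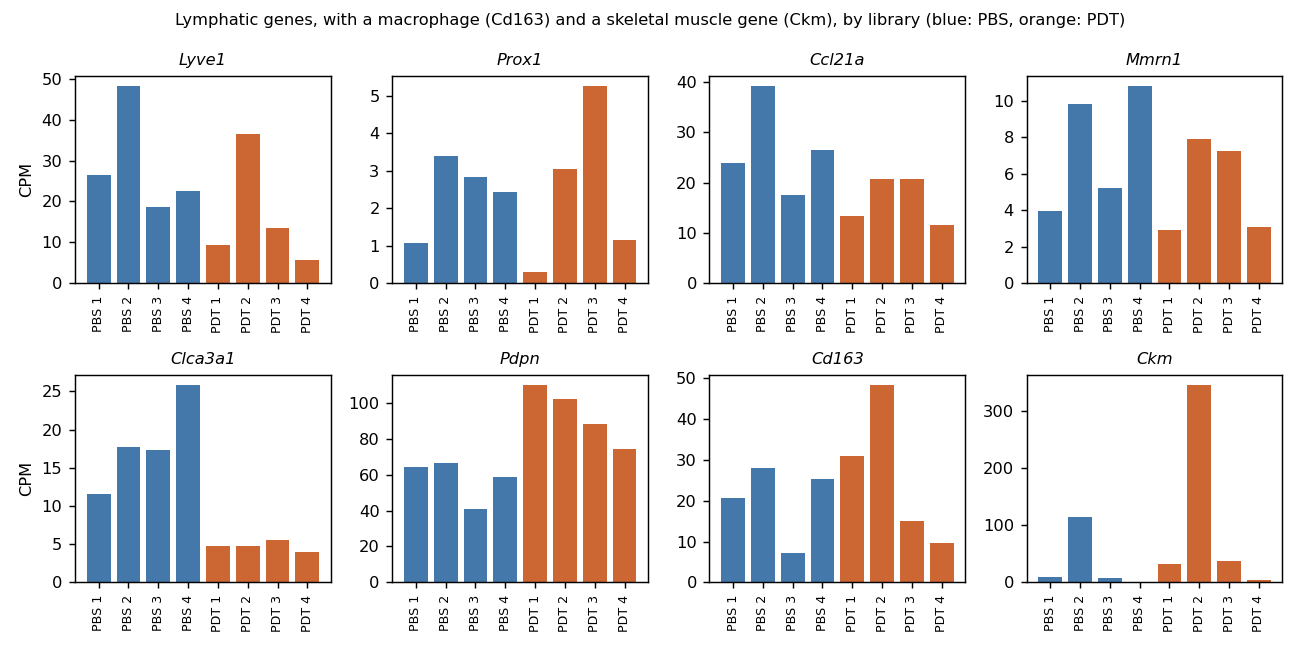
CPM in each library (bars) of 6 lymphatic genes, of the macrophage gene Cd163 and of the skeletal muscle gene Ckm. PBS 2 and PDT 2 are the highest libraries in Lyve1 and in Ckm, PDT 1 and PDT 4 are the lowest PDT libraries in Lyve1, Prox1, Ccl21a and Mmrn1, and Clca3a1 separates the groups.

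Divided by exon length, the members could be set beside each other. In PBS, Ecscr was highest at 23.5 ± 2.42 CPM per kilobase, followed by Vcam1 at 14.6 ± 3.26, Lyve1 at 9.92 ± 4.54, Cldn5 at 8.67 ± 1.31, Plvap at 7.15 ± 1.47 and Eng at 6.03 ± 0.860 (SD, n = 4). Lyve1 and Cldn5 differed by less than the larger of their SDs, as did Plvap and Eng, while Cldn5 and Plvap differed by slightly more than either SD. Pecam1, at 3.52 CPM per kilobase, and Cdh5, at 3.55, were level with each other, while Prox1, at 0.291, Sox17, at 0.179, and Selp, at 0.154, were the lowest above Sele. In PDT the first was again Ecscr at 28.2 ± 5.71, now followed by Vcam1 at 10.8 ± 1.51 and Plvap at 10.6 ± 3.73, which differed by less than their SD, and Lyve1 had 5.57 ± 4.75. Exons of 12 of the 34 members share bases with another annotated gene (GENCODE M21), among them Nos3 with Gm15587, Rasip1 with Izumo1 and Ackr1 with Cadm3, so the counts of such members are less certain.

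Genes that act with the members were taken from further lists. Among 26 other blood endothelial genes, 0 passed the adjusted threshold, 5 had an unadjusted p under 0.05 and were higher, and 2 were lower, with a median of 0.086. Cd93, a receptor that pairs with Mmrn2 on endothelium and is present on myeloid cells as well, was at 21.6 to 29.7 CPM in PBS and 40.1 to 48.4 CPM in PDT, without overlap. The estimate for Cd93 was 0.72 ± 0.14 (SE, adjusted p = 0.0566 by edgeR) on the log2 scale. Fli1, an ETS factor of endothelium and blood cells, was at 10.1 to 14.4 CPM in PBS and 19.4 to 20.9 CPM in PDT, likewise without overlap. The estimate for Fli1 was 0.75 ± 0.16 (SE, adjusted p = 0.0736 by edgeR) on the log2 scale. Kdr, the main VEGF receptor of endothelium, was at 7.68 to 10.6 CPM in PBS and 3.59 to 9.19 CPM in PDT, with PDT 1 the lowest. The estimate for Kdr was −0.32 ± 0.29 (SE, adjusted p = 0.647 by edgeR) on the log2 scale. Both Cd93 and Fli1 are made by leukocytes, whose macrophage markers were above 0 for 12 of 12 tested genes in PDT, and that part was not tested. Arhgef15, of the same list, was also higher without overlap, at 1.61 to 2.48 CPM in PBS and 4.79 to 5.94 CPM in PDT. Its estimate was 1.37 ± 0.30 (SE, adjusted p = 0.0745 by edgeR) on the log2 scale. Tm4sf1 was lower without overlap, by −0.76 ± 0.18 (SE, adjusted p = 0.0906 by edgeR). Lyl1 was also higher without overlap, by 1.07 ± 0.37 on the log2 scale (SE, adjusted p = 0.176 by edgeR). Arhgef15, Tm4sf1 and Lyl1 were chosen here after their values were seen.

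Among 10 other genes linked to tip cells, 1 rose. Cxcr4, the CXCL12 receptor of tip cells and of most leukocytes, was at 18.1, 13.9, 14.99 and 18.6 CPM in PBS 1 to PBS 4 and 32.8, 31.5, 43.4 and 34.8 CPM in PDT 1 to PDT 4, without overlap. Its log2 change was 1.12 ± 0.16 (SE, adjusted p = 0.03002 by edgeR), and its call was kept in 2 of the 8 fits with 1 library left out, with log2 changes of 1.01 to 1.20. Igfbp3, a secreted binding protein of insulin-like growth factors, was at 690.3 to 784 CPM in PBS and 459 to 576 CPM in PDT, without overlap. The estimate for Igfbp3 was −0.49 ± 0.12 (SE, adjusted p = 0.0872 by edgeR) on the log2 scale. The median of the 10 was −0.11.

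Notch, arterial and venous genes included 0 past the adjusted threshold among 15, with a median of −0.18. Jag1, a Notch ligand of endothelium and of many epithelia, was at 81.8 to 156 CPM in PBS and 62.0 to 69.2 CPM in PDT, without overlap. The estimate for Jag1 was −0.84 ± 0.17 (SE, adjusted p = 0.0652 by edgeR) on the log2 scale. Efnb2, the ephrin of arteries, was at 45.9 to 65.5 CPM in PBS and 33.2 to 49.8 CPM in PDT, with an estimate of −0.46 ± 0.17 (SE, adjusted p = 0.206 by edgeR). Of 5 genes responsive to blood flow, 0 passed, and Piezo1 and Klf2, a mechanosensitive channel and a flow-induced factor, differed by −0.44 ± 0.23 and 0.34 ± 0.22 on the log2 scale (SE, adjusted p = 0.375 and 0.503 by edgeR).

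Cytokine-induced genes, some of which share inducers with Icam1, Vcam1 and Sele, were tested for 14 of 15, and 0 passed. Ccl2, a chemokine for monocytes, was at 21.3 to 23.7 CPM in PBS and 25.6 to 74.9 CPM in PDT, without overlap. The estimate for Ccl2 was 1.09 ± 0.27 (SE, adjusted p = 0.0951 by edgeR), and that for Nfkbia, an inhibitor and target of NF-kappaB, was 0.58 ± 0.21 (SE, adjusted p = 0.195 by edgeR). Their median was −0.054. Among 9 leukocyte receptors for the adhesion molecules, 0 passed. At an unadjusted p under 0.05 by edgeR, 5 were higher and 2 lower, against 8.63% and 7.87% of all tested genes. Selplg, the ligand of the selectins, was at 16.9 to 22.5 CPM in PBS and 26.6 to 40.5 CPM in PDT and Itgb2, the beta chain of the receptors for ICAM-1, at 31.3 to 46.1 CPM in PBS and 51.1 to 58.9 CPM in PDT, both without overlap, and their log2 differences were 0.88 ± 0.16 (SE, adjusted p = 0.0515 by edgeR) and 0.57 ± 0.14 (SE, adjusted p = 0.0951 by edgeR). The scarce Selp and Sele, to which Selplg binds, are given above.

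Markers of other cell types gave 1 call. Cd68, a lysosomal protein of macrophages, rose by 0.85 ± 0.15 on the log2 scale (SE, adjusted p = 0.0497 by edgeR), a call kept in 0 of the 8 fits with 1 library left out, and Ms4a7, another macrophage gene, differed by 1.11 ± 0.21 (adjusted p = 0.0566). In the lists of 10 fibroblast, 10 tumour epithelium, 7 adipocyte and 8 skeletal muscle genes 0 passed, and all 8 muscle genes had estimates above 0. Adgre1, the macrophage antigen F4/80, was at 53.5 to 114 CPM in PBS and 106 to 155 CPM in PDT. The 2 smallest p in the remaining lists belonged to Col1a1 and Col15a1, collagens of fibroblasts, at 0.54 ± 0.18 and −0.58 ± 0.24, and to Sox9 and Cldn4 of epithelium, at −0.47 ± 0.15 and −0.66 ± 0.46 (SE). For Fabp4 and Lep of adipocytes the estimates were 0.69 ± 0.71 and −1.11 ± 1.45, and for Myh1 and Mylpf of muscle 1.75 ± 0.69 and 1.85 ± 0.80 (SE). Mcam of pericytes was at −0.37 ± 0.20 and Hbb-bt, a beta globin, at −1.41 ± 0.49 (SE). Red blood cell genes, 5 of 5 with a log2 fold change under 0, summed to 808 to 4437 CPM in PBS and 591 to 1353 CPM in PDT, and 0 passed, with Alas2, the erythroid enzyme of heme synthesis, at −1.45 ± 0.44 (SE, adjusted p = 0.139 by edgeR). The 10 pericyte genes summed to 134 to 153 CPM in PBS and 161 to 209 CPM in PDT, without overlap, 0 passed, and Rgs5, a pericyte regulator of G-protein signalling, differed by 0.29 ± 0.16 (SE, adjusted p = 0.417 by edgeR). Ndufa4l2, which encodes a mitochondrial protein and is also induced by hypoxia, had the smallest p of the pericyte list. It was at 17.7 to 23.4 CPM in PBS and 33.0 to 91.2 CPM in PDT, without overlap. Its log2 difference was 1.42 ± 0.27 (SE, adjusted p = 0.0560 by edgeR). The value of 91.2 CPM was that of PDT 1, which also held the highest pericyte sum. Without Ndufa4l2 the other 9 pericyte genes summed to 115 to 131 CPM in PBS and 118 to 147 CPM in PDT, which overlapped. Platelets carry Vwf, Selp and Pecam1 as well, and of 10 platelet genes only 4 passed the filter on low counts and 0 were called. Gp1bb had 0 reads in all 8 libraries, and Tubb1 and Gp6 were at most 0.143 CPM. Pf4, which macrophages may also make, was at 91.4 to 248 CPM in PBS and 241 to 545 CPM in PDT, Ppbp, a platelet chemokine, at 5.35 to 14.9 CPM in PBS and 15.2 to 24.4 CPM in PDT, and Itga2b, the platelet integrin chain, at 2.94 to 7.18 CPM in PBS and 1.53 to 5.76 CPM in PDT. Adipocyte genes, which can bring vessels of fat, summed to 375 CPM in PBS 2 and 478 CPM in PDT 3, while the other 6 held 31.5 to 80.4 CPM. PDT 3 also had the highest pan-endothelial sum, and the part of fat in it was not tested, while PDT 4, the second highest, was among those 6.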

How the data were processed

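RNA-seq of rRNA-depleted total RNA from 4 PBS and 4 PDT tumour samples was used. The authors deposited raw read counts per gene for 57132 rows. Per the submitters' processing notes, cutadapt 4.6, STAR 2.7.11b and build GRCm39 were used. How reads were counted, with which strand setting and gene annotation, is not given in the sources used here, and overlapping genes may share reads. Even counts made up 77.9% to 83.8% of values from 1 to 20 in each library, so mates of a pair may have been counted separately.

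From the counts, edgeR 4.0.16 in R 4.3.3 was run with its default low-count filter, TMM scaling and the quasi-likelihood test on all 16588 genes kept, without covariates, with Benjamini-Hochberg adjustment over all of them. Intervals are 95% and use the moderated degrees of freedom. CPM use the TMM-scaled library. limma 3.58.1 and DESeq2 1.42.0 served as alternatives. The steps were tested on simulated data. Exon lengths came from GENCODE M21 (GRCm38) by gene ID. Total counts per library are given with the results, and the 28 pairs of libraries differed by more than sampling noise.

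The members and lists were chosen with earlier results of these data known. All members are named, and of each other list the 2 genes with the smallest p plus Pf4, Itga2b, Rgs5, Adgre1, Krt8, Epcam, Krt19 and Kdr. Genes named outside this rule were chosen after their values were seen. The alternatives were other scalings, filters and tests, a replicate block, halved counts and each library left out. A correction for GC content and length and the omission of PBS 2 with PDT 2 were added after seeing the data.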

Additional observations from a re-analysis of the deposited data

Results flagged for a closer look

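A sample lay far from the other 3 of its group in 3 of the 68 groups of values checked, where chance gives about 1 in 20. Sox18 was at 11.8 CPM in PBS 1 against 6.78 to 7.10 CPM in the other PBS libraries. Apln was at 20.1 CPM in PBS 3 against 10.4 to 10.8 CPM. Sele was at 0.105 CPM in PBS 3, which is 4 reads, against 0 in the other PBS libraries.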

How the results depend on the processing

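In 18 alternatives 0 members passed an adjusted p of 0.05, 27 of the 33 tested kept their direction in every alternative that could be fitted, and 6 changed it in at least 1. The number of genes called higher and lower moved from 27 and 12 to 50 and 19 with upper-quartile scaling, 395 and 139 with no count filter, 60 and 28 with at least 1 CPM in 4 samples, 45 and 22 with counts divided by 2, 518 and 351 with DESeq2, and 100 and 67 with limma-voom. The GC and length correction gave 16 and 9. Leaving out PBS 2 and PDT 2 gave 1 and 0, and leaving out single libraries gave 0 to 106 higher and 0 to 35 lower. The cause was not tested. With the replicate number as a block, 148 were higher and 34 lower, with 0 members among them. Same-numbered libraries correlated only at 0.0385 to 0.0690 in their deviations. Each PBS library correlated best with a PDT library of another number. The labels do not say whether the numbers pair the samples, and correlations this weak cannot settle it.

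Members whose groups did not overlap numbered 1 higher and 1 lower after the GC and length correction (4.64% and 3.84% of all tested genes), 6 higher and 3 lower without PBS 2 and PDT 2 (11.1% and 10.6% of all tested genes), and 0 to 5 higher and 0 to 3 lower without single libraries (6.45% to 9.60% and 5.69% to 7.96%). The tip median ran from −0.15 to 0.26, the latter without PBS 3. Log2 differences that changed sign were those of Ackr1 (0.12 without PBS 2 and PDT 2), Apln (−0.015 with the GC correction, −0.12 to 0.34 without single libraries), Dll4 (−0.53 to 0.058), Esm1 (0.0082 without PBS 2 and PDT 2, −0.47 to 0.18), Mmrn2 (0.15 with limma-voom, −0.37 to 0.15) and Prox1 (−0.0017 with the 1 CPM filter, −0.50 with the replicate block, −0.25 with limma-voom, −0.70 to 0.38). Selp and Ackr1 could not be fitted under the 1 CPM filter. The mitochondrial difference ran from −0.82 to −0.53 percentage points without single libraries. Depth limits Sele, Selp and Ackr1, which had fewer than 10 reads in some library.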
